A study of Mus musculus with 28 samples.

Results

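Vegfa, Slc2a1, Hk1, Hk2, Pfkp, Pgk1, Ldha, Pkm, Bnip3 and Adm are 10 mouse genes of the response to low oxygen and of glycolysis, followed here in mice that overexpressed the human DNA and RNA cytosine deaminase A3B (APOBEC3B). They were chosen by name, with earlier results of these data known. They make up 10 of the 35928 gene symbols of one RNA-seq set and 10 of the 24849 rows of the other. The study asked what acute A3B expression does in the tissues of living mice, and bulk RNA-seq was measured in 28 samples. Set 2 holds liver from 6 A3B mice and 2 controls and pancreas from 6 A3B mice and 2 controls, and 5 of the A3B mice and both controls gave both tissues. Set 1 holds liver from 3 A3B mice and 3 controls and lung from 3 A3B mice and 3 controls, and A3B mouse 70 and control 91 gave both tissues.

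A3B mice carried human APOBEC3B fused to turboGFP behind a doxycycline-responsive promoter (TetO-A3B-tGFP, in the Col1a1 locus), with the CAGs-rtTA3 driver, which is active in most adult tissues, so the transgene was not restricted to one cell type. Per the study's methods, mice were adult, 4 weeks old, when put on food with 625 ppm doxycycline. The A3B samples and both controls of set 2 are labelled with 10 days of feeding, A3B livers 23 and 28 of set 1 with 14 days, the A3B liver and lungs of the other set 1 mice with 10 days, and the controls of set 1 with 15 days. The controls lacked the driver and carried only A3B, apart from control lung 87, which carried the driver alone, and control liver 11, which is labelled as carrying both. The study's list of mice marks most controls of set 1 as not fed doxycycline, and one of its figure legends says the same of the controls of set 2, both against the labels. Where controls had no drug, its effect and that of A3B cannot be told apart. The genotype label goes against the title in 4 pancreas samples (A3B mice 44 and 137, controls 45 and 168), whose livers are labelled as their titles say, and the titles were followed.

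When oxygen falls, the hypoxia-inducible factors HIF-1 alpha and HIF-2 alpha escape degradation, pair with ARNT and switch on genes that bring in glucose, run glycolysis, recycle mitochondria and draw in blood vessels. Slc2a1 encodes the glucose transporter GLUT1, Hk1 and Hk2 the hexokinases that trap glucose, Pfkp a phosphofructokinase, Pgk1 and Pkm the steps that yield ATP, and Ldha the enzyme that turns pyruvate into lactate. Vegfa encodes the main growth factor of blood vessels, Adm the vasodilating peptide adrenomedullin, and Bnip3 a mitochondrial protein that promotes mitophagy, while a healthy hepatocyte takes up glucose through GLUT2 and phosphorylates it with glucokinase rather than with these hexokinases.

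HIF binds a short element with the core letters ACGTG or GCGTG. In the RefSeq promoter table for GRCm38.p6, which spans 250 bases before to 50 bases after each start, ACGTG was present on either strand in at least 1 promoter of 8 of the 10 genes and of 21.8% of the 27025 gene symbols in the table, and GCGTG in 7 of the 10 and 35.2%. A match describes letters only, and some promoters of one gene overlap. The 4 windows shown are those of the genes whose levels passed the test in lung, other than Vegfa, whose match lies within the gene body. The match begins 36 bases before the start in Slc2a1, 52 in Hk2, 108 in Bnip3, and 150 and 131 in Pgk1. Each is a stretch of 60 bases around a match upstream of the RefSeq start, printed 5′ to 3′ on the gene's strand, with ACGTG or its complement CACGT in capitals (CACGTG where both overlap). They are at chr4:119108681-119108740 on the plus strand for Slc2a1, chr6:82774475-82774534 on the minus strand for Hk2, chr7:138909583-138909642 on the minus strand for Bnip3 and chrX:106186922-106186981 on the plus strand for Pgk1.
Slc2a1: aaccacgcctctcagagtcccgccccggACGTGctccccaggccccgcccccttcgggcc
Hk2: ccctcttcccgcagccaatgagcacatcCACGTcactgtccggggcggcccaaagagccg
Bnip3: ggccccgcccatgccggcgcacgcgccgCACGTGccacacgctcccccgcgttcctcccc
Pgk1: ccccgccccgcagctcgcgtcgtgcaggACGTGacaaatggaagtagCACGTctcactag

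Set 2 held between 65161064 and 118976013 estimated read counts per sample, and set 1 gives TPM only, a length-scaled share of each library, so its depth is unknown. Every A3B liver of set 2 had fewer counts than both control livers (65161064 to 98780481 against 104834346 and 118976013). The pancreas totals overlapped between the groups. The 10 most abundant genes took 59.7 to 62.4% of the counts in the control pancreases and 12.1 to 20.6% in the A3B pancreases. Since TPM values sum to the same total in every library, most genes read higher in A3B pancreases on that scale. The test therefore used counts scaled by the trimmed mean of M-values (TMM), which sets the bulk of genes at equal levels. Levels on that scale are printed as counts per library size so scaled (CPM). Both scales are given in pancreas, and in liver of set 2 for Pgk1, Ldha and Bnip3. The tally of A3B livers above or below both controls also depended on the scale for Vegfa, Hk1, Hk2, Pfkp and Adm. These are given in TPM there, and their groups overlapped on both scales. The human transgene, which the set 1 table lists as a row of its own, was at 0.0928 to 0.144 TPM in control livers and 705 to 1705 TPM in A3B livers, and at 0.435 to 0.526 TPM in control lungs and 90.6 to 281.0 TPM in A3B lungs. The labelled tissues showed their defining markers, with summed hepatocyte markers at 31540 TPM or more in every liver of set 2 and acinar markers at 57950 TPM or more in every pancreas. Fewer cells of a type and less RNA per cell cannot be told apart in bulk samples.

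Slc2a1 was the one gene of the 10 with a higher level in every A3B sample than in every control of its tissue and set, in each of the 4 tissue and set groups (liver of both sets, pancreas and lung). In TPM this held for 24.3% of genes tested in liver of set 2, 28.5% in liver of set 1, 70.8% in pancreas and 23.3% in lung. The share of genes for which it held in all 4 groups at once was not computed. In liver of set 2 Slc2a1 was the only member that passed the test, 1 of 10, against 3.66% of the 17376 genes tested (1.25% higher and 2.41% lower). In pancreas 4 of 10 members passed (Slc2a1, Hk1 and Pkm higher, Vegfa lower), against 31.9% of 19142 genes (17.0% higher and 14.9% lower). In lung 5 of the 9 tested members passed (Slc2a1, Hk2 and Bnip3 higher, Vegfa and Pgk1 lower), against 36.8% of 13651 genes (16.1% higher and 20.8% lower). None of the 9 tested passed by limma in liver of set 1, against 7.93% of 11507 genes (6.07% higher and 1.86% lower), although Slc2a1 and Bnip3 had an unadjusted p under 0.05. Adm was below the minimum mean of 1 TPM in set 1 and was not tested there. The median log2 fold change of the members tested was 0.29 in liver of set 2, 0.68 in pancreas, 0.46 in liver of set 1 and 0.04 in lung, against 0.21, 0.09, 0.39 and −0.06 over all genes tested.

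**Figure D1:**
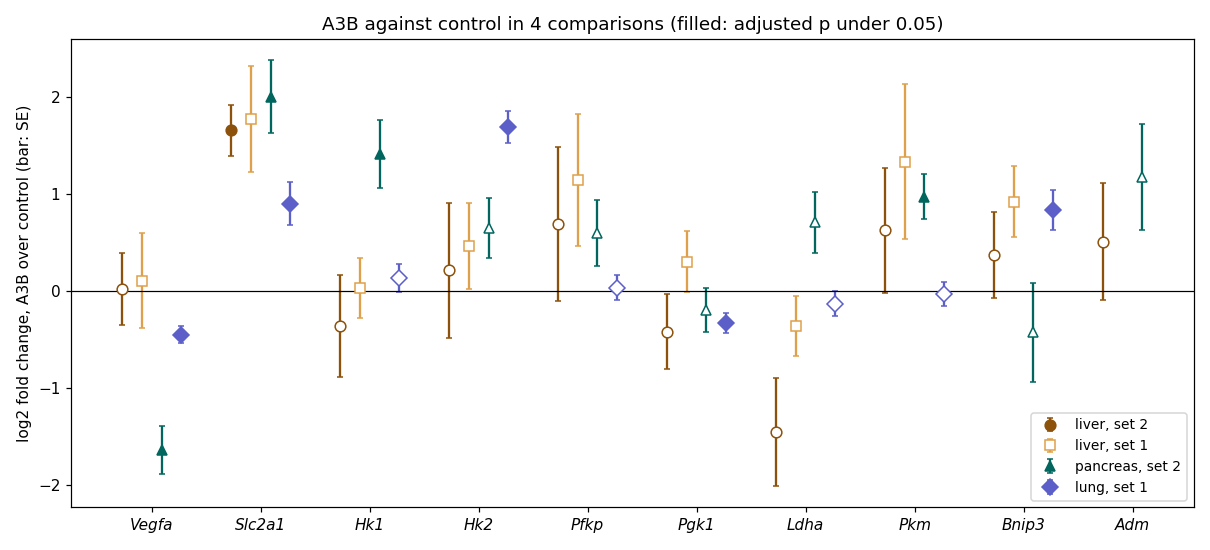
Log2 fold change of A3B over control for each gene in 4 comparisons, with bars for the standard error and filled symbols for an adjusted p under 0.05 (set 2, edgeR on TMM-scaled counts; set 1, limma on log2(TPM + 1), with Adm not tested). Slc2a1 lies above 0 in every comparison, from 0.90 in lung to 2.0 in pancreas. Vegfa lies below 0 with filled symbols in pancreas and lung and near 0 in liver (0.02 in set 2, 0.11 in set 1). Ldha lies below 0 in liver and lung and above 0 in pancreas, with no filled symbol.

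Slc2a1 (ENSMUSG00000028645.11, chr4:119108711-119137983, plus strand) stood at 4.06 and 4.40 TPM in the 2 control livers of set 2, and at 13.8 TPM (lowest), 18.8 (median) and 26.8 (highest) in the 6 A3B livers. No A3B liver overlapped a control. The level rose by a log2 fold change of 1.65 (SE 0.27), a 3.15-fold change, with an adjusted p of 0.0146 (edgeR quasi-likelihood test, Benjamini-Hochberg). With either control left out the fold stayed at 1.43 to 1.72 on the log2 scale but the adjusted p was 0.215 without control 45 and 0.161 without control 168, each fit resting on a single control. In set 1 the control livers read 4.95, 7.60 and 14.1 TPM, with the highest value in control 11, and the A3B livers 19.8, 21.7 and 64.0 TPM, with the highest in mouse 28. The groups were again apart, at a log2 difference of 1.77 (SE 0.54) that did not pass (limma, adjusted p = 0.0778). Fitted over the 14 livers of both sets with the set as a term, the difference was 1.85 (SE 0.29), with an adjusted p of 0.000306 by limma, beside 39.0% of the 10150 genes called (30.6% higher and 8.42% lower) and a median of 0.38 over all genes. It was the only one of the 8 members tested there that passed, and it passed without any one library, with a range of 1.62 to 2.01.

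In pancreas Slc2a1 stood at 0.731 and 1.75 TPM in the controls and at 16, 19.7 and 32.1 TPM (lowest, median, highest) in the A3B mice. On the TMM scale the controls had 7.67 and 8.70 CPM and the A3B pancreases 19.6 to 52.7, so the groups were apart on both scales. The log2 fold change was 2.0 (SE 0.37), with an adjusted p of 0.00309 (edgeR), and it was 4.13 with total-count scaling. In lung the controls read 12.1, 17.2 and 18.9 TPM and the A3B lungs 23.5, 31.8 and 37.6 TPM, all above the controls, at a log2 difference of 0.90 (SE 0.22, limma, adjusted p = 0.0208). This call was lost without control 91 (0.72), A3B lung 69 (0.75) or A3B lung 70 (0.87), with adjusted p from 0.0576 to 0.0616. The difference between the pancreas and liver effects of set 2 was 0.52 (SE 0.42), which did not pass (edgeR, adjusted p = 0.445).

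**Figure D2:**
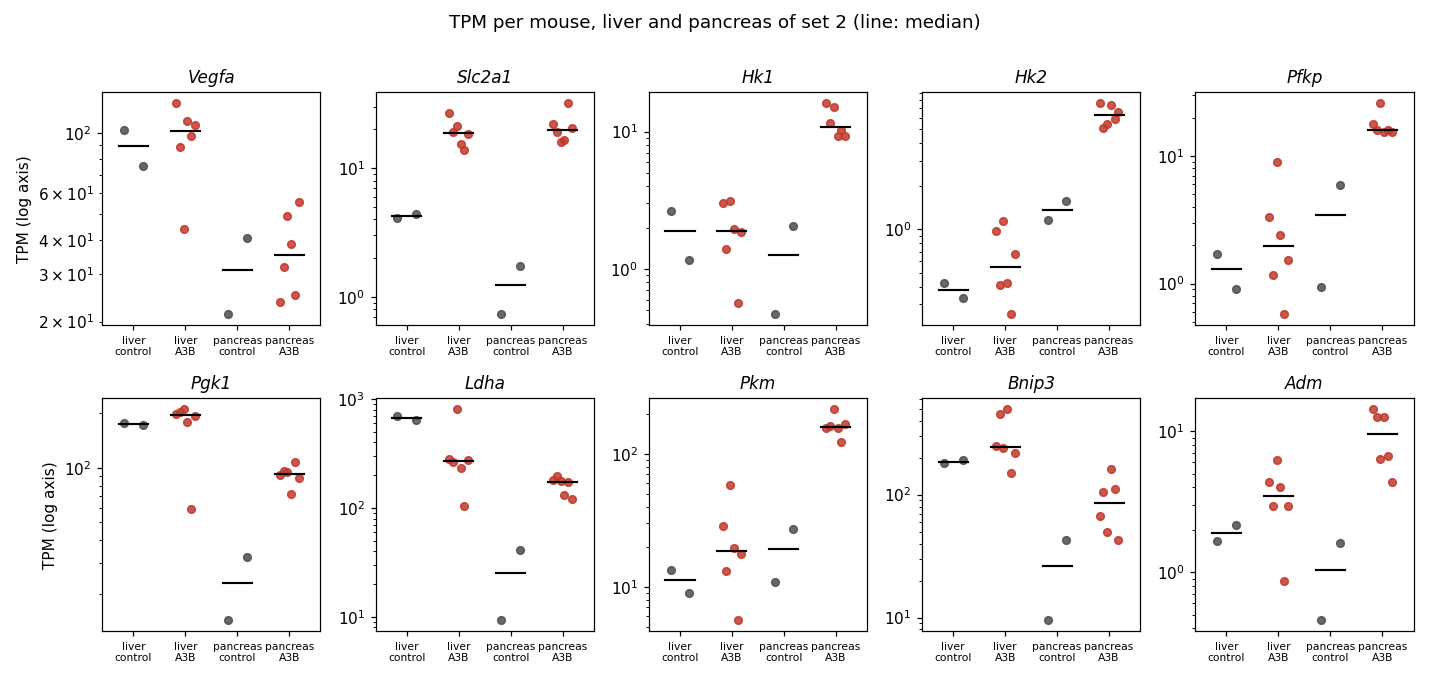
TPM of each gene in each mouse of set 2 on log axes, with control samples in grey, A3B samples in red and the group median as a line. The 6 A3B livers and 6 A3B pancreases sit above both controls for Slc2a1, while Ldha is lower in 5 of 6 A3B livers and higher in all 6 A3B pancreases on this scale.

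Among the hexokinases, Hk1 passed the test in pancreas and Hk2 in lung. The difference between the pancreas and liver effects passed for neither (edgeR, Hk1 1.94, adjusted p = 0.0605, Hk2 0.61, adjusted p = 0.617). Pancreas was not tested against lung. Hk1 (ENSMUSG00000037012.18, chr10:62268855-62379908, minus strand), the form found in most tissues, was at 1.16 and 2.63 TPM in control livers of set 2 and 0.571 to 3.15 TPM in A3B livers, which overlapped. In pancreas it was at 0.468 and 2.06 TPM in controls and at 9.29, 10.9 and 16.2 TPM (lowest, median, highest) in A3B mice, and on the TMM scale at 6.02 and 14.0 against 21.5 to 38.7 CPM. The pancreas groups were apart on both scales, and Hk1 rose by a log2 fold change of 1.41 (SE 0.35, edgeR, adjusted p = 0.0121), a call that was lost without control 45 (0.95, adjusted p = 0.0821). In lung the 3 controls read 91.0, 96.7 and 127 TPM and the A3B lungs 105, 119 and 120, within the range of the controls, at a log2 difference of 0.14 (SE 0.14).

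Hk2 (ENSMUSG00000000628.10, chr6:82725025-82774454, minus strand), the form of muscle and fat and a known HIF target, had the largest difference of any member in lung. Control lungs read 14.6, 15.2 and 17.4 TPM and A3B lungs 41.1, 57.7 and 61.9 TPM. Every A3B lung was above every control, at a log2 difference of 1.69 (SE 0.17, limma, adjusted p = 0.00257), and no left-out lung ended the call (1.58 to 1.87). In pancreas the controls read 1.16 and 1.58 TPM and the A3B mice 5.12 to 7.63, and on the TMM scale 12.4 in both controls against 13.3 to 27.8 CPM. The pancreas difference of 0.65 (SE 0.31) did not pass (edgeR, adjusted p = 0.131), though it did with total-count scaling (2.82, adjusted p = 0.000175). In liver Hk2 stayed low, at most 1.14 TPM in set 2, and the groups overlapped in both sets.

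Pfkp (ENSMUSG00000021196.14, chr13:6579768-6648777, minus strand), the platelet form of phosphofructokinase, did not pass in any comparison. Its A3B livers of set 2 ran from 0.572 to 8.95 TPM around controls at 0.913 and 1.69, and its A3B livers of set 1 read 14.8, 19.1 and 99.6 TPM against controls of 10.9, 12.4 and 17.7. One library stood apart in each, A3B liver 49 in set 2 and A3B liver 28 in set 1. In pancreas the A3B mice read 15.3 to 26.1 TPM against 0.944 and 5.89 in controls, but on the TMM scale 26.8 to 37.7 CPM overlapped the higher control at 30.4 (log2 fold change 0.60, SE 0.34, edgeR, adjusted p = 0.197). Without control 168 the fold was 1.57, resting on 1 control. In lung the A3B samples lay within the controls' range.

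Pgk1 (ENSMUSG00000062070.12, chrX:106187100-106203699, plus strand), which makes the first ATP of glycolysis, was at 174 and 178 TPM in control livers of set 2 and 59.1, 196 and 212 TPM (lowest, median, highest) in A3B livers. In TPM only A3B liver 48 was below both controls, whereas on the TMM scale 5 of 6 were, at 89.9 to 242 CPM against 252 and 293, with mouse 137 at 254 between them. The difference did not pass (−0.42, SE 0.38). In lung the controls read 446, 470 and 478 TPM and the A3B lungs 339, 359 and 414 TPM, all below the controls, at a log2 difference of −0.33 (SE 0.10, limma, adjusted p = 0.0471). That call lay close to the threshold and was lost in 5 of 6 fits with 1 lung left out (−0.36 to −0.27, adjusted p from 0.0738 to 0.135), all but the one without A3B lung 70, and also without the filter on low values (adjusted p = 0.0564) and with median-ratio scaling (0.0881). In pancreas Pgk1 was at 14.4 and 32.1 TPM in controls and 71.6 to 107 in A3B mice, while the TMM scale gave 108 and 112 against 77.2 to 125 CPM, a log2 fold change of −0.19 (SE 0.23) that turned to 1.99 with total-count scaling. The retrogene Pgk1-rs7, whose reads cannot be cleanly split from those of Pgk1, reached 12.9 TPM in set 2, and with its counts added the liver and pancreas folds were −0.40 and −0.18.

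Pkm (ENSMUSG00000032294.17, chr9:59656368-59679375, plus strand), the pyruvate kinase of non-hepatic tissues, was at 10.9 and 27.3 TPM in control pancreases and at 123, 160 and 218 TPM (lowest, median, highest) in A3B pancreases. On the TMM scale the controls stood at 107 CPM each and the A3B mice at 180 to 230, so the groups were apart on both. Pkm rose by a log2 fold change of 0.97 (SE 0.23, edgeR, adjusted p = 0.00952), and no left-out library ended the call (0.94 to 1.01). The A3B livers of set 2 ran from 5.57 to 58.2 TPM around controls at 9.01 and 13.5. The 3 control livers of set 1 lay within 23.8 to 24.0 TPM and the A3B livers read 27.5, 31.9 and 261 TPM, all above, but the fold of 1.33 (SE 0.80) did not pass (limma, adjusted p = 0.279), and it was 0.30 without mouse 28. In lung the groups overlapped.

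Ldha (ENSMUSG00000063229.15, chr7:46841475-46855627, plus strand), the lactate dehydrogenase subunit of muscle and liver, was at 646 and 698 TPM in control livers of set 2 and at 103, 235, 266, 278, 283 and 813 TPM in the 6 A3B livers. In TPM 5 of 6 A3B livers were below both controls and mouse 49 above them, whereas on the TMM scale all 6 were below, at 132 to 786 against 842 and 929 CPM. For comparison, 12.9% of the genes tested were lower in every A3B liver on that scale. The log2 fold change of −1.45 (SE 0.55) did not pass (edgeR, adjusted p = 0.160), and without A3B liver 49 it was −2.01 with an adjusted p of 0.0106. The control livers of set 1 read 5340, 6101 and 6582 TPM and the A3B mice 3475, 5054 and 5801, with 2 of 3 below the controls (−0.36, SE 0.31, not passed). Over both sets the difference was −0.83 (SE 0.39, limma, adjusted p = 0.0996).

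In pancreas Ldha went the other way. The controls read 9.26 and 41.4 TPM and the A3B mice 122, 174 and 197 TPM (lowest, median, highest), all above, and on the TMM scale 60.7 and 116 against 114 to 175 CPM, which overlapped in 1 mouse. The fold of 0.71 (SE 0.31) did not pass (edgeR, adjusted p = 0.109). It was 1.27 without control 168, a fit resting on 1 control, and 2.74 with total-count scaling. In lung Ldha ran from 1972 to 2438 TPM in controls and from 1882 to 2326 in A3B mice, with no difference past the test.

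The liver libraries that stood apart for these genes also stood apart in their cell markers. A3B liver 49 of set 2 was the highest in TPM for Hk1, Hk2, Pfkp, Pgk1, Ldha, Pkm and Adm and the lowest for Vegfa. It had the lowest summed hepatocyte markers of the set (31540 TPM, against 43097 to 72962 in the other A3B livers and 84585 and 136586 in controls). Its macrophage (708 TPM) and neutrophil (126 TPM) sums were the highest. A3B liver 48, the lowest for Hk1, Hk2, Pfkp, Pgk1, Ldha, Pkm, Bnip3 and Adm, had macrophage markers at 19.7 TPM and endothelial markers at 22.2 TPM, the lowest sums of the set. A3B liver 28 of set 1, the highest for Slc2a1, Hk1, Hk2, Pfkp, Pkm and Adm, had the lowest hepatocyte sum (2184 TPM), the highest macrophage and neutrophil sums (827 and 126 TPM) and a skeletal muscle sum of 255 TPM, against at most 1.92 TPM in the other livers of that set. None of the 7 hepatocyte and 6 macrophage markers was at 0 in every sample, and none passed the test in liver of either set. Other lists had sums apart between the groups, as Slc2a1 did. Adipocyte sums were 17.8 to 178 TPM in A3B livers against 4.99 and 5.60 in controls of set 2, and 111 to 527 against 8.59 to 11.6 in set 1, where 1 of 4 markers was testable and rose. Skeletal muscle sums were 0.0993 to 52.1 against 0.0237 and 0.0525 TPM in set 2, and 1.36 to 255 against 0.0103 to 0.847 in set 1. Neutrophil sums of set 2 were 7.26 to 126 against 3.85 and 6.05 TPM. Acinar sums of set 1 were lower, at 9.76 to 10.1 against 52.7 to 120 TPM, and the 1 tested marker fell. Hepatocyte sums of set 1 were lower too, at 2184 to 5431 against 5768 to 7038 TPM. Erythroid sums were lower in set 2, at 124 to 802 against 1326 and 4350 TPM, with 1 of 5 markers called. The part of all these in the levels of the members was not tested.

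Vegfa (ENSMUSG00000023951.17, chr17:46016993-46032369, minus strand) fell in pancreas on the TMM scale and in lung. The control pancreases stood at 128 and 151 CPM and the A3B pancreases at 36.5, 39.4 and 67.1 (lowest, median, highest), with no overlap, and 18.9% of genes tested were lower in every A3B pancreas on that scale. The log2 fold change was −1.64 (SE 0.25, edgeR, adjusted p = 0.00108), and it stayed at −1.79 to −1.50 with any one library left out. In TPM the same samples overlapped, at 21.3 and 40.8 in controls and 23.6 to 55.5 in A3B mice, and with total-count scaling the fold was 0.59 and not called. Vegfa thus fell relative to the bulk of genes of the pancreas, whose median was 2.29 higher with total-count scaling, and not as a share of the library. In lung, the tissue with the most Vegfa in set 1, the controls read 1779, 1792 and 1908 TPM and the A3B mice 1316, 1337 and 1364 TPM, all below, at −0.45 (SE 0.09, limma, adjusted p = 0.0101). No left-out lung ended that call. In liver the groups overlapped in both sets, at 75.3 and 103 TPM in controls against 44.2 to 129 in A3B mice of set 2, with a fold of 0.02 (SE 0.37).

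Adm (ENSMUSG00000030790.15, chr7:110627661-110629820, plus strand) stayed at or below 14.4 TPM in every sample. In pancreas it was at 0.454 and 1.60 TPM in controls and at 4.36, 9.60 and 14.4 TPM (lowest, median, highest) in A3B mice, but on the TMM scale 2.36 and 3.98 overlapped 3.32 to 11.7 CPM, and the fold of 1.18 (SE 0.55) did not pass (edgeR, adjusted p = 0.125). Liver of set 2 had 1.66 and 2.16 TPM in controls and 0.867 to 6.28 in A3B mice. In set 1 Adm lay at or below 1.46 TPM in every sample, and in both tissues each A3B sample was above each control, narrowly in lung (lowest A3B 0.714, highest control 0.711 TPM).

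Bnip3 (ENSMUSG00000078566.8, chr7:138890836-138909519, minus strand) rose in lung, from 24.8, 31.5 and 43.5 TPM in controls to 51.6, 61.9 and 63.6 TPM in A3B mice. The groups were apart, at a log2 difference of 0.84 (SE 0.21, limma, adjusted p = 0.0208), a call lost without control 91, A3B 70 or A3B 74 at adjusted p of 0.0582 to 0.0667. The control livers of set 1 read 59.2, 62.7 and 92.0 TPM and the A3B mice 95.9, 130 and 191, also apart, but 0.92 (SE 0.36) did not pass (limma, adjusted p = 0.130). The A3B livers of set 2 ran from 151 to 498 TPM around controls at 179 and 192, with 5 of 6 above both. On the TMM scale the controls stood at 160 and 220 CPM, and 2 of 6 A3B livers were above both (364 and 387), 3 between and 1 below (148). Over both liver sets the difference was 0.75 (SE 0.30, limma, adjusted p = 0.0560), and it passed without A3B liver 48 or A3B liver 28. In pancreas the A3B mice read 42.9 to 162 TPM against 9.46 and 42.7, while on the TMM scale 29.7 to 134 overlapped 70.4 and 121 CPM, and the fold was −0.42 (SE 0.51) and turned to 1.62 with total-count scaling.

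**Figure D3:**
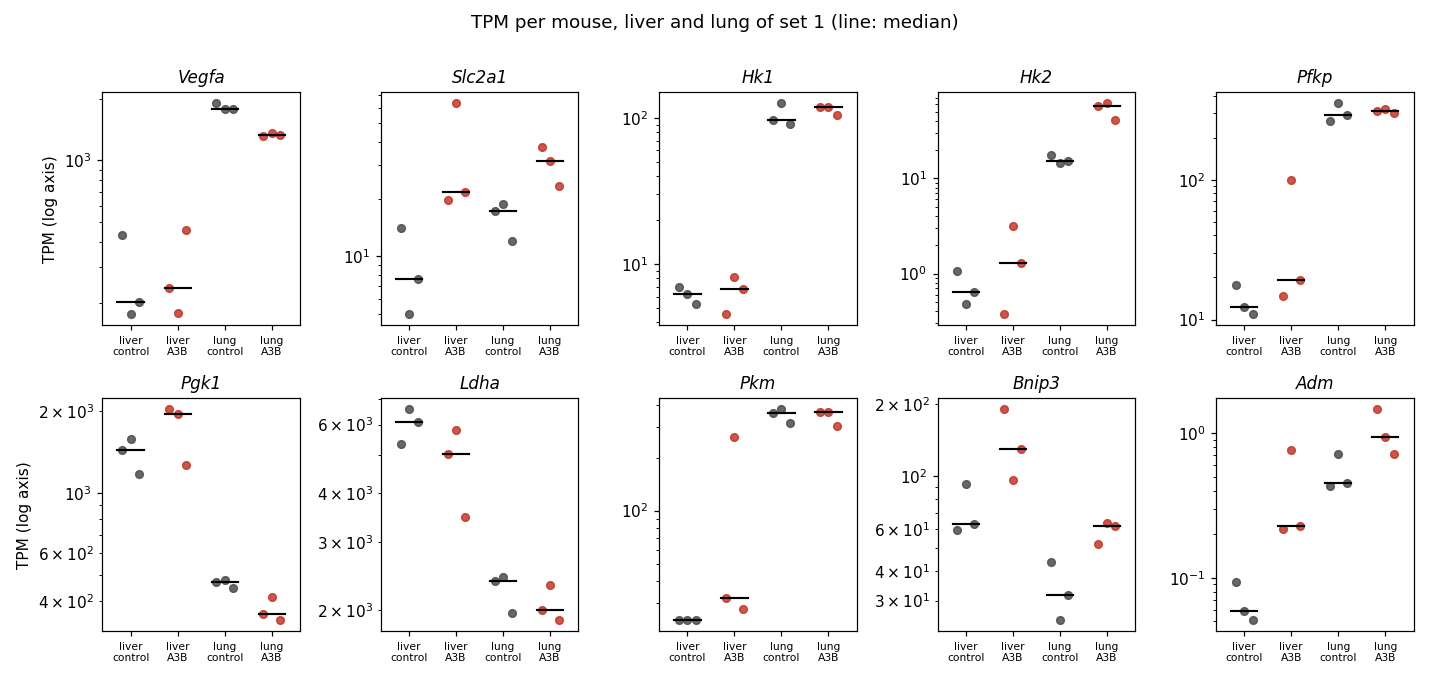
TPM of each gene in each mouse of set 1 on log axes, with control samples in grey, A3B samples in red and the group median as a line. In lung the 3 A3B mice lie above the 3 controls for Slc2a1, Hk2, Bnip3 and Adm and below them for Vegfa and Pgk1, and A3B liver 28 gives the high point for Slc2a1, Hk2, Pfkp, Pkm and Adm.

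Counts of genes whose groups did not overlap were read against all genes. TPM of 1 member was higher in every A3B liver of set 2 (24.3% of genes tested) and of 0 lower (5.42%), in liver of set 1 of 3 of 9 higher (28.5%) and 0 lower (10.3%), and in lung of 3 of 9 tested higher (23.3%) and 2 lower (30.6%). In pancreas TPM of 9 of 10 members was higher in every A3B mouse, where 70.8% of all genes were, and none was lower (1.07%). On the TMM scale 4 of 10 members were higher in every A3B pancreas, Slc2a1, Hk1, Hk2 and Pkm, beside 25.1% of genes, and 1 lower. With total-count scaling 9 of 10 members passed as higher in pancreas, all but Vegfa, as did 70.4% of all genes, and none as lower (1.10%). The same scaling in liver of set 2 left Slc2a1 as the one member called higher (5.05%) and none called lower (1.39%).

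**Figure D4:**
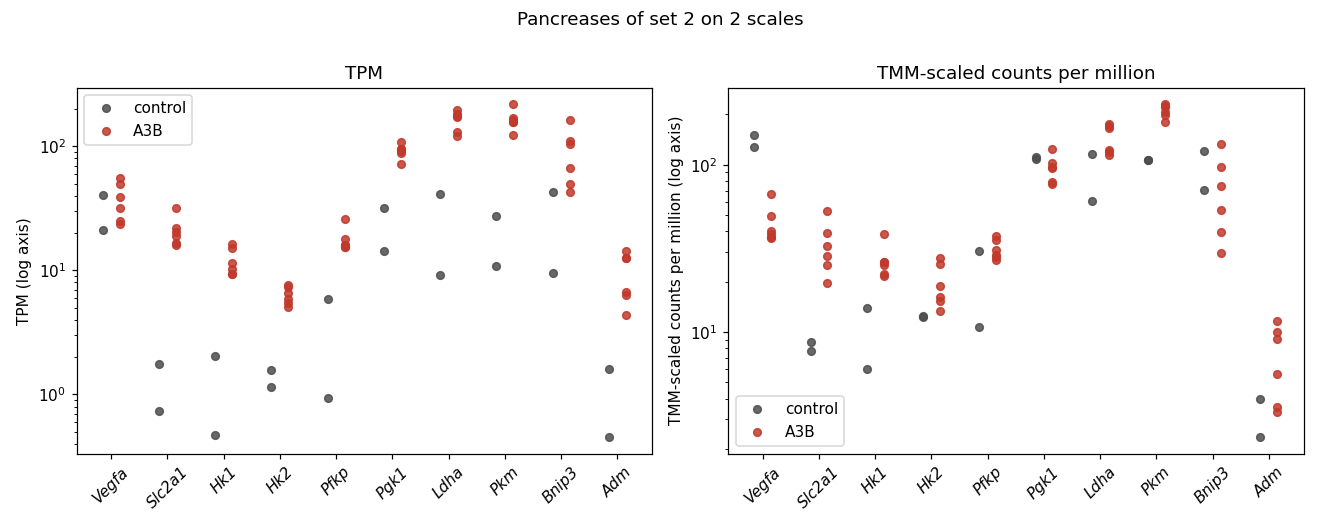
The 10 genes in the pancreases of set 2, as TPM on the left and as TMM-scaled CPM on the right, both on log axes, with 2 controls in grey and 6 A3B mice in red. In TPM all genes but Vegfa lie higher in A3B mice, and on the TMM scale Vegfa lies lower, Slc2a1, Hk1, Hk2 and Pkm higher, and the other 5 overlap.

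The A3B pancreases also differed in their cell markers. Summed acinar markers were at 57950 to 157635 TPM in A3B mice and 287600 to 300343 TPM in controls, and 7 of 8 fell on the TMM scale. On that scale 17.0% of all genes tested were called higher and 14.9% lower. In TPM 70.8% were higher in every A3B pancreas. All 6 macrophage markers rose, with sums of 988 to 2625 TPM against 14.7 and 60.2, and so did 5 of 6 fibroblast markers (389 to 769 against 24.7 and 118 TPM) and 3 of 5 ductal markers (312 to 725 against 12.2 and 50.6 TPM). All 5 erythroid markers fell, from 2112 and 2773 TPM to 41.9 to 914. Endothelial sums were 86.5 to 150 against 15.4 and 29.9 TPM, with 1 of 7 markers called higher. Islet sums were 3594 to 13090 against 3400.5 and 3473 TPM, though 2 of 5 markers were called lower. Of 4 skeletal muscle markers 3 were called lower, and their sums overlapped. None of these markers was at 0 in every pancreas. The part of this change in the levels of Slc2a1, Hk1, Pkm and Vegfa was not tested. In lung 1 of 6 lung epithelial markers and 2 of 7 endothelial markers fell, 1 of 6 macrophage and 1 of 6 fibroblast markers rose, and the sums of these 4 lists overlapped between groups. Of all genes tested in lung, 20.8% were called lower and 16.1% higher. Adipocyte sums were apart, at 112 to 473 TPM in A3B lungs against 47.3 to 107 in controls, though none of the 4 markers passed the test. Erythroid sums were lower, at 3.15 to 5.20 against 9.23 to 29.3 TPM, where 4 of 5 markers were at 0 in every lung and the other fell. Their part in the lung levels of Slc2a1, Hk2, Bnip3, Vegfa and Pgk1 was not tested.

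Whether the A3B effect differed between pancreas and liver was tested over the 16 samples of set 2. The effect on Vegfa was lower in pancreas by 1.5 on the log2 scale (SE 0.46, edgeR, adjusted p = 0.0442) and that on Ldha higher by 2.33 (SE 0.73, adjusted p = 0.0487), 2 of 10 members against 11.9% of 19927 genes (6.87% higher and 5.02% lower). With the mouse as a block, since 7 mice gave both tissues, the values were −1.30 (adjusted p = 0.0815) and 2.36 (adjusted p = 0.0654), and neither passed. With 1 library left out Vegfa passed in 3 of 16 fits and Ldha in 2 of 16, each time without A3B liver 49 or 48, or for Vegfa also without A3B pancreas 153. With total-count scaling the Vegfa difference was 0.16. Hk1 came next, at 1.94 (SE 0.64, adjusted p = 0.0605), and the other 7 members had adjusted p of 0.445 or more.

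In set 2 some transcript shares of Vegfa, Slc2a1, Ldha and Pkm did not overlap between the groups. Among genes with at least 2 transcripts, the leading transcript's share of TPM did not overlap between groups for 2 of 9 members in liver (17.6% of genes) and 2 of 10 in pancreas (37.6% of genes). Vegfa-201 held 8.95 and 13.8% of Vegfa TPM in control livers and 16.8 to 44.7% in A3B livers, all higher. Vegfa-202 held 14.4 and 22.6% in control pancreases and 28.1 to 38.0% in A3B pancreases, all higher. As a share of the estimated count, however, the pancreas groups overlapped for Vegfa-202. Vegfa-203 held 0 and 1.37% in control pancreases and 2.53 to 15.2% in A3B pancreases, also all higher. Slc2a1-204, the leading Slc2a1 transcript in pancreas, held 62.9 and 83.6% of Slc2a1 TPM in controls and 39.2 to 61.2% in A3B mice. It was lower in every A3B pancreas by both measures, and was the only member's leading transcript in pancreas that was apart by count. Pkm-202 held 19.0 and 19.8% of Pkm TPM in control livers and 8.04 to 13.9% in A3B livers, and 1.62 and 2.76% in control pancreases and 6.34 to 16.3% in A3B pancreases. Its share was thus lower in every A3B liver and higher in every A3B pancreas, whereas the leading Pkm-201 overlapped in both by TPM. By estimated count the Pkm-201 share was higher in every A3B liver, by 4.21 percentage points on average. Neither Pkm-202 nor Vegfa-203 led its gene, and no share over all genes was computed for such transcripts. For Ldha, the leading transcript Ldha-202 held 99.0 and 99.5% in control livers and 72.5 to 98.8% in A3B livers. Splitting reads among transcripts that share exons is an estimate, and these shares were not tested.

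**Figure D5:**
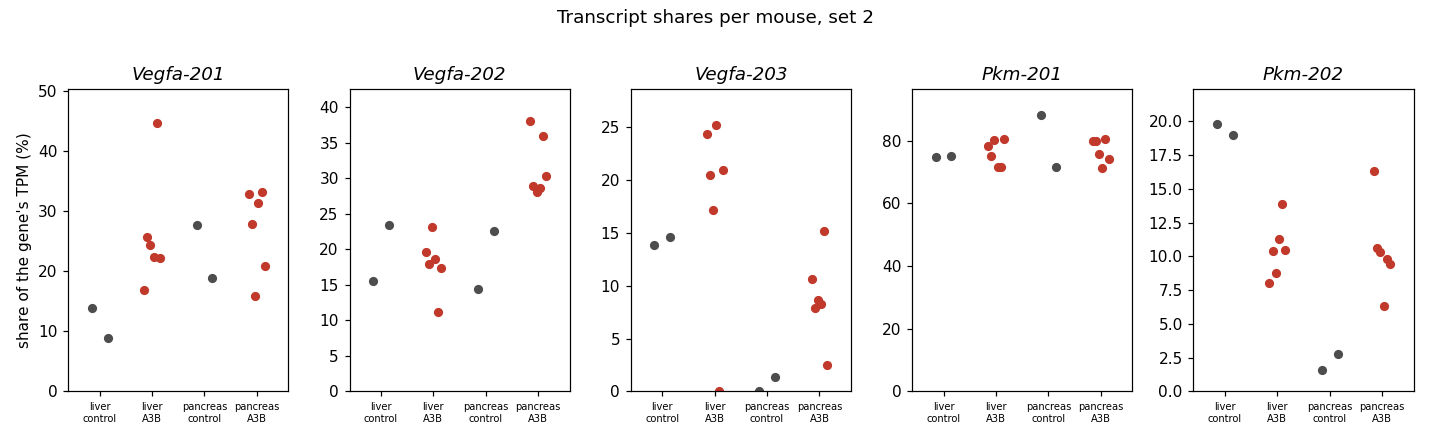
Share of the gene's TPM held by 3 Vegfa and 2 Pkm transcripts in each mouse of set 2, in percent, with controls in grey and A3B mice in red. The Pkm-202 points of the A3B mice lie below both controls in liver and above both controls in pancreas. No share over all genes was computed for transcripts that do not lead their gene.

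By TPM in set 2, Vegfa ranked A3B liver (median 102.0), control liver (89.2), A3B pancreas (35.4) and control pancreas (31.0), and only the middle pair had ranges apart. Slc2a1 ranked A3B pancreas (median 19.7 TPM), A3B liver (18.8), control liver (4.23) and control pancreas (1.24), and only the first pair of neighbours overlapped. Over the 16 samples, with each tissue centred on its own mean, the genes whose TMM-scaled log2 counts most resembled Vegfa were Izumo4 (Pearson r = 0.96), Bcl7a (0.95) and Surf2 (0.95), and those for Ldha were Ywhab (0.95), Fam69a (0.93) and Fmn1 (0.93). These are descriptions over 16 samples that share tissues, mice and the A3B contrast.

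Of 30 other genes of glycolysis and its control, Pdk4, the kinase that holds pyruvate back from the mitochondria, rose in each tissue, by 5.47 (SE 1.02) in liver of set 2, 4.35 (SE 0.66) in pancreas, 4.67 (SE 0.88) in liver of set 1 and 3.20 (SE 0.18) in lung, with adjusted p from 0.00116 to 0.0327 (edgeR in set 2, limma in set 1). Only this gene rose in liver of set 2, 1 of 30, and 2 fell, the aldolase Aldoc (−2.48) and the liver pyruvate kinase Pklr (−2.51). In pancreas 7 of 30 rose, with Gapdh at 2.02, and 5 fell, among them Pdk1 (−1.61) and the monocarboxylate transporter Slc16a7 (−1.15), and 4 of these 5 turned positive with total-count scaling. Of 26 tested in liver of set 1, 3 rose and none fell by limma, with Pfkfb2 at 1.65 and Pfkfb3 at 1.29, and in lung 4 of 29 rose and none fell, with the transporters Slc2a3 at 1.16 and Slc16a3 at 1.04. The median log2 fold change of this list was 0.26, 0.32, 0.12 and 0.04 in these 4 comparisons, beside 0.21, 0.09, 0.39 and −0.06 for all genes. In the same order, 1.25, 17.0, 6.07 and 16.1% of all genes tested were called higher, and 2.41, 14.9, 1.86 and 20.8% lower.

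Of 30 other genes of the hypoxia response, 3 of 29 rose in liver of set 2 and none fell by edgeR, namely the transferrin receptor Tfrc (2.80), the mTOR inhibitor Ddit4 (3.48) and the lipid droplet protein Hilpda (4.31). Of 23 tested in liver of set 1, 4 rose and none fell by limma, Hilpda (4.61), Ddit4 (3.6), Angptl4 (1.90) and Ero1l (2.19). In lung 9 of 27 rose, with Angptl4 at 1.76, Flt1 at 1.57 and Ddit4 at 2.56, and 1 fell. In pancreas 9 of 30 rose, with the carbonic anhydrase Car9 at 3.57 and Hmox1 at 2.84, and 2 fell, Stc2 (−2.47) and Higd1a (−1.81, which turned positive with total-count scaling). The medians were 0.18, 1.0, 0.33 and 0.34 in the order of these 4 comparisons, beside 0.21, 0.39, −0.06 and 0.09 for all genes. In that order, 1.25, 6.07, 16.1 and 17.0% of all genes tested were called higher, and 2.41, 1.86, 20.8 and 14.9% lower.

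Of 12 regulators of the HIF pathway, Hif3a, which encodes an alpha subunit whose short forms dampen HIF, rose in each tissue, by 3.76 (SE 0.86) in liver of set 2, 2.42 (SE 0.36) in pancreas, 2.0 (SE 0.28) in liver of set 1 and 3.36 (SE 0.55) in lung, with adjusted p from 0.000997 to 0.0453. Its levels in control livers were at or below 0.169 TPM, so its liver folds start near 0. In set 1 it met the minimum mean of 1 TPM only through its A3B livers, so its call there is no separate support. Hif1a itself rose in pancreas (1.17, SE 0.29) and lung (0.79, SE 0.18), and Epas1, which encodes HIF-2 alpha, in lung (0.74, SE 0.10). In liver 1 of 11 regulators rose in set 2 (Hif3a) and 2 of 11 in set 1 (Hif3a and Siah1a). In pancreas 3 of 12 rose, and in lung 8 of 12. None fell by edgeR or limma. The shares of all genes called higher were 1.25, 6.07, 17.0 and 16.1% in that order. The list medians were 0.50, 1.16, 0.41 and 0.41, beside 0.21, 0.39, 0.09 and −0.06 for all genes. Of 15 VEGF and adrenomedullin ligands and receptors, the co-receptor Nrp1 fell in liver of set 2 (−2.34, SE 0.32) and rose in pancreas (1.84, SE 0.33), and the difference between those effects was 4.36 (SE 0.52, edgeR, adjusted p = 0.000614). In pancreas 3 of 15 rose and 3 fell, among them Ramp1 (−2.88), Vegfb (−1.32) and Angpt1 (−1.27), and the latter pair turned positive with total-count scaling. In lung 4 of 14 rose, with the adrenomedullin co-receptor Ramp3 at 3.42 and Flt4 at 1.26, and the VEGF receptor Kdr fell (−0.70). None of 10 passed by limma in liver of set 1, where Nrp1 was at −2.10 (SE 0.57, adjusted p = 0.0594). The medians of this list were −0.34 in liver of set 2, 0.20 in pancreas, −0.15 in lung and −0.11 in liver of set 1, beside 0.21, 0.09, −0.06 and 0.39 for all genes. All genes called higher made up 17.0% in pancreas and 16.1% in lung, and those called lower 2.41% in liver of set 2, 14.9% in pancreas and 20.8% in lung.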

How the data were processed

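RNA-seq of 28 mouse tissue samples was analysed from the values the authors deposited. For set 2 (16 samples) the authors pseudo-aligned trimmed reads to mouse transcripts with kallisto and deposited estimated counts and TPM per transcript. For set 1 (12 samples) the authors deposited 1 table of TPM per gene, whose column headers name sorted, deduplicated alignments, and removing duplicates compresses abundant genes, so levels were not compared between sets. The submitters' processing notes name the builds GRCm38 and mm10. Of 119414 transcripts, 97.8% matched GENCODE M21 and were summed per gene symbol, with estimated counts rounded to whole numbers.

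Groups were taken from sample titles. Set 2 was tested with edgeR 4.0.16 (TMM, filterByExpr, robust quasi-likelihood test) within each tissue and for the interaction of tissue and A3B, and set 1 with limma 3.58.1 (trend, robust) on log2(TPM + 1), keeping genes whose mean TPM reached 1, in R 4.3.3. Both livers were fitted with set as a term. A gene was called at a Benjamini-Hochberg adjusted p under 0.05 over all genes tested. Standard errors come from these fits. The scripts were tested on simulated data. Alternatives were total-count scaling, DESeq2 1.42.0, no filter, limma on TPM, median-ratio scaling, a pseudocount of 0.1, no set term, the mouse as a replicate block and each sample left out. Adding Pgk1-rs7 to Pgk1 was chosen after seeing the data.

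Same-numbered samples of set 2 come from 1 mouse. Their deviations from the group means correlated across genes at −0.0044 to 0.28. The rule for named genes was all members in every comparison, up to 4 called genes of smallest p per further list and comparison, and the 3 genes most correlated with Vegfa and with Ldha. Higd1a, Hif1a in lung, and values given for a gene in a comparison where it was not among the 4, were added after their values were seen. The members and lists were chosen with earlier results of these data known. The labels do not say whether samples of a group share a litter. The p-values set each difference against the spread among these samples, with 2 controls per tissue in set 2. The main fit of the difference between tissues treated its samples as independent, though mice gave both tissues.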

Additional observations from a re-analysis of the deposited data

Results flagged for a closer look

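In groups of 6, a sample was singled out where its gap to the next sample exceeded 0.625 of the group's range, a limit that chance passes in about 1 of 20 groups, and 20 groups were looked at. A3B liver 49 was the highest of the 6 A3B livers of set 2 for Pfkp, at 8.95 TPM against 0.572 to 3.33 in the others, and for Ldha, at 813 TPM against 103 to 283. A3B liver 48 was the lowest for Pgk1, at 59.1 TPM against 179 to 212. In pancreas, A3B mouse 49 was the highest for Pfkp, at 26.1 TPM against 15.3 to 17.8. The A3B effect differed between pancreas and liver for Vegfa (−1.50 on the log2 scale, edgeR, adjusted p = 0.0442) and for Ldha (2.33, adjusted p = 0.0487), and neither passed with the mouse as a block. The cause was not tested.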

How the results depend on the processing

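The number of controls (2 per tissue) and the scale in pancreas set the limits. In pancreas, total-count scaling gave 13693 called genes and 9 called members, with Vegfa at 0.59, Pgk1 at 1.99 and Bnip3 at 1.62, and limma on log2(TPM + 1) gave 11557 genes and 9 members, with 0.26, 2.02 and 1.93. For the difference between tissues, total-count scaling gave 8071 genes and 4 members (Vegfa 0.16, Bnip3 0.83), limma on TPM 7831 genes and 7 members (Vegfa 0.21, Bnip3 1.35), DESeq2 3763 genes, and no filter 0 members. The replicate block, pairing samples of 1 mouse, gave 1619 genes and 0 members there. No other comparison shares mice between its groups. In liver of set 2, total-count scaling gave 1119 called genes (Hk1 0.13, Pgk1 0.042), DESeq2 2401 genes (Vegfa −0.049) and limma on TPM a positive Hk1 (0.023). In liver of set 1, no filter gave 54 called genes, and median-ratio scaling gave −0.34 for Vegfa, −0.36 for Hk1 and −0.15 for Pgk1, and in lung 0.043 for Pkm. Over both livers, median-ratio scaling gave 2 called members and −0.34 for Vegfa, −0.30 for Hk1 and −0.33 for Pgk1, and without a set term 1526 genes were called, with −0.33 for Vegfa, −0.33 for Hk1 and −0.77 for Pgk1. The cause of these changes, beyond the shift of the scale itself, was not tested.

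With 1 sample left out, called genes ranged from 73 (without control 168) to 1596 (without A3B liver 49) in liver of set 2, from 3826 (without control 45) to 5822 in pancreas, from 546 (without control liver 45) to 3408 for the difference between tissues, from 1 (without control 91) to 1562 (without control 11) in liver of set 1, and from 2998 (without A3B lung 69) to 4579 in lung. Called members ranged from 0 to 2 in liver of set 2, 0 to 3 for the difference between tissues, 2 to 4 in lung and 1 to 2 over both livers. Members that changed sign in such fits were never called in them. In liver of set 2 these were Vegfa (−0.17 to 0.10), Hk1 (−0.85 to 0.12), Hk2 (−0.14 to 0.35) and Pfkp (−0.049 to 0.85), in liver of set 1 Vegfa (−0.27 to 0.50) and Hk1 (−0.13 to 0.24), and over both livers Vegfa (−0.092 to 0.25) and Hk1 (−0.11 to 0.17). In lung they were Pfkp (−0.055 to 0.15) and Pkm (−0.10 to 0.059), in pancreas Bnip3 (−0.74 to 0.035), and for the difference between tissues Pfkp (−0.48 to 1.07).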
